A study of Mus musculus with 26 samples.

Results

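Wnt antagonists, Frizzled receptors and signalling genes of the mouse left ventricle were followed as a set of 10 genes, picked by symbol from the 15249 genes of the deposited count table, and all 10 were present. They are the secreted Wnt binders Sfrp1, Sfrp2, Frzb and Wif1, the Dickkopf family member Dkk3, the receptors Fzd1, Fzd2 and Fzd4, the intracellular inhibitor Axin2 and the transcription factor Tcf7l2. RNA was sequenced from the left ventricle of C57BL6 mice in 26 libraries that combine an Mst-1 genotype with a galectin-3 genotype. The groups were wild type (wt, 6 libraries), mice overexpressing Mst-1, the Hippo pathway kinase encoded by Stk4 (MstTg, 7), mice with a knockout of galectin-3, a secreted sugar-binding protein encoded by Lgals3 (Gal3Ko, 8), and mice carrying both changes (Mst1Gal3, 5). The series presents the Mst-1 mouse as a dilated cardiomyopathy model and asks what loss of galectin-3 does with and without it. The sources used here do not state the promoter that drives Mst-1, the founder line, the deleted part of Lgals3, or the age and sex of the mice. The labels do not say that each library is a separate animal, so p-values measure the spread between these libraries.

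Wnt proteins are secreted, lipid-modified ligands that bind Frizzled receptors together with the LRP5/6 co-receptors. In the canonical branch this stops the destruction complex, built on Axin and APC, from degrading beta-catenin, which then enters the nucleus and works with TCF/LEF factors such as TCF7L2. Secreted Frizzled-related proteins and WIF1 bind Wnt ligands outside the cell, and AXIN2 is both a canonical target gene and a brake on the pathway. In the adult heart Wnt signalling is low at rest and is known to be re-engaged after injury, and several secreted antagonists are made by fibroblasts.

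Stk4 had a mean level of 23.6 CPM (counts scaled to TMM-adjusted library size) in wt and 23.3 CPM in Gal3Ko, against 949 CPM in MstTg and 977 CPM in Mst1Gal3, with no overlap. Lgals3 averaged 1.64 CPM in wt, 55.2 CPM in MstTg and 3.91 CPM in Mst1Gal3. At 2.14 CPM in Gal3Ko it was not below wt, so its count checked the knockout label only in the Mst-1 background. Library totals were 18580405 to 32663735 counts, and 1 count in the smallest library equals 0.0538 CPM. Genes of the mitochondrial genome took 29.2 to 35.5% of counts in wt and 26.8 to 38.3% in Gal3Ko, but 14.4 to 23.3% in MstTg and 15.7 to 23.0% in Mst1Gal3. The 10 cardiomyocyte markers, the ventricular light chain gene Myl2 among them, summed to between 110894 and 151278 CPM in every library. This sum is weighted to the most abundant genes of the list, and most of the single markers were lower in MstTg than in wt, as given below. The atrial genes Myl4, Myl7 and Sln together stayed at 1.19 to 21.1 CPM in 20 libraries but exceeded 30 CPM in 6 (wt 5, MstTg 5, Gal3Ko 4, 5 and 8, Mst1Gal3 3), and counts of called members are given with and without those libraries.

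The promoter sequences of a receptor, an antagonist and a feedback gene that rose together are shown first. RefSeq windows (GRCm38.p6, 250 bases before to 50 after the annotated start) were found for 7 of the 10 members, not for Sfrp1, Dkk3 and Fzd2. The 250 bases upstream of the start of Fzd1 (chr5:4758217-4758466, minus strand), Axin2 (chr11:108920099-108920348, plus strand) and Sfrp2 (chr3:83766071-83766320, plus strand) follow, 5′ to 3′, with capitals marking a TCF/LEF motif.
Fzd1: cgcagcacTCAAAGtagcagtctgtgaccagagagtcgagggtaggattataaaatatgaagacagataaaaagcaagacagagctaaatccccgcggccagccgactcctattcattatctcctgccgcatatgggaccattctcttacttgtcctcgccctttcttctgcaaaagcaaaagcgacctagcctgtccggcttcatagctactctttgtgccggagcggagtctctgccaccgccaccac
Axin2: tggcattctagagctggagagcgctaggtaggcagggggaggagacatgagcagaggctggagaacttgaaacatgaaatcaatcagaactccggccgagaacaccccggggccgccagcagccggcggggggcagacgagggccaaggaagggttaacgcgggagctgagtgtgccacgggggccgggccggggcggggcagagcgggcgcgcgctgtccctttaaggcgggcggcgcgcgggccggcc
Sfrp2: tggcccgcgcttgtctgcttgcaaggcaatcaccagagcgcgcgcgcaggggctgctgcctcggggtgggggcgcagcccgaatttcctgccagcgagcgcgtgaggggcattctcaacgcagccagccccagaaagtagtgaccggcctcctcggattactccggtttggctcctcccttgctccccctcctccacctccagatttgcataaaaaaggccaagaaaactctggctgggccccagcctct
Windows were searched on both strands for the TCF/LEF core CTTTGA and for the TEAD core CATTCC. The TCF/LEF core was in 2 of the 7 members' windows, starting at position -242 from the RefSeq start of Fzd1 and at -95 in Frzb, and in 16.0% of all 32851 windows of 300 bases. Only 21 bases of the Frzb window lie upstream of both the RefSeq and the GENCODE start, and its match lies inside the GENCODE gene. The RefSeq start of Fzd1 (4758216) lies upstream of the GENCODE start of this minus-strand gene (4758035). The TEAD core was in 0 of the 7 and in 14.7% of all windows. These are matches of letters in short windows and were not tested as binding sites.

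Mst-1 overexpression was accompanied by higher levels of most antagonists and of 2 of the 3 receptors, and by lower levels of Fzd4. By edgeR's quasi-likelihood test with Benjamini-Hochberg adjustment over all genes (adjusted p under 0.05), 7 of the 10 genes rose in MstTg against wt and 2 fell, while Wif1 did not pass. Among all genes 28.2% were called higher and 26.8% lower in this comparison, so a call alone is common here. In bulk tissue, fewer cells of a type and less RNA per cell cannot be told apart. The median log2 fold change of the 10 genes was 1.01, against 0.02 over all genes. The 10 genes were chosen with earlier results of these data known, so their medians describe the chosen set and do not test it. In the galectin-3 knockout background, Mst1Gal3 against Gal3Ko, the counts were again 7 higher and 2 lower, with 26.9% of all genes called higher and 25.6% lower and medians of 0.90 and 0.01. These comparisons share no libraries. Without the 6 libraries high in atrial genes, 7 of the 10 genes were higher in both comparisons. In that setting 1 was lower in MstTg against wt and 2 in Mst1Gal3 against Gal3Ko. The shares of all genes called without those libraries are not given here, so these counts of members do not show an excess. When CPM were scaled by library totals in place of TMM factors, the median of all genes moved to 0.27 in MstTg against wt and 0.24 in Mst1Gal3 against Gal3Ko. All genes then split into 7789 higher and 2166 lower in the former, against 4302 and 4083 with TMM, and into 7374 and 1929 in the latter, against 4108 and 3905. The changes below are therefore relative to the TMM scale, and with library totals 7 of the 10 genes remained called higher in each comparison but only Fzd4 was called lower.

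**Figure D1:**
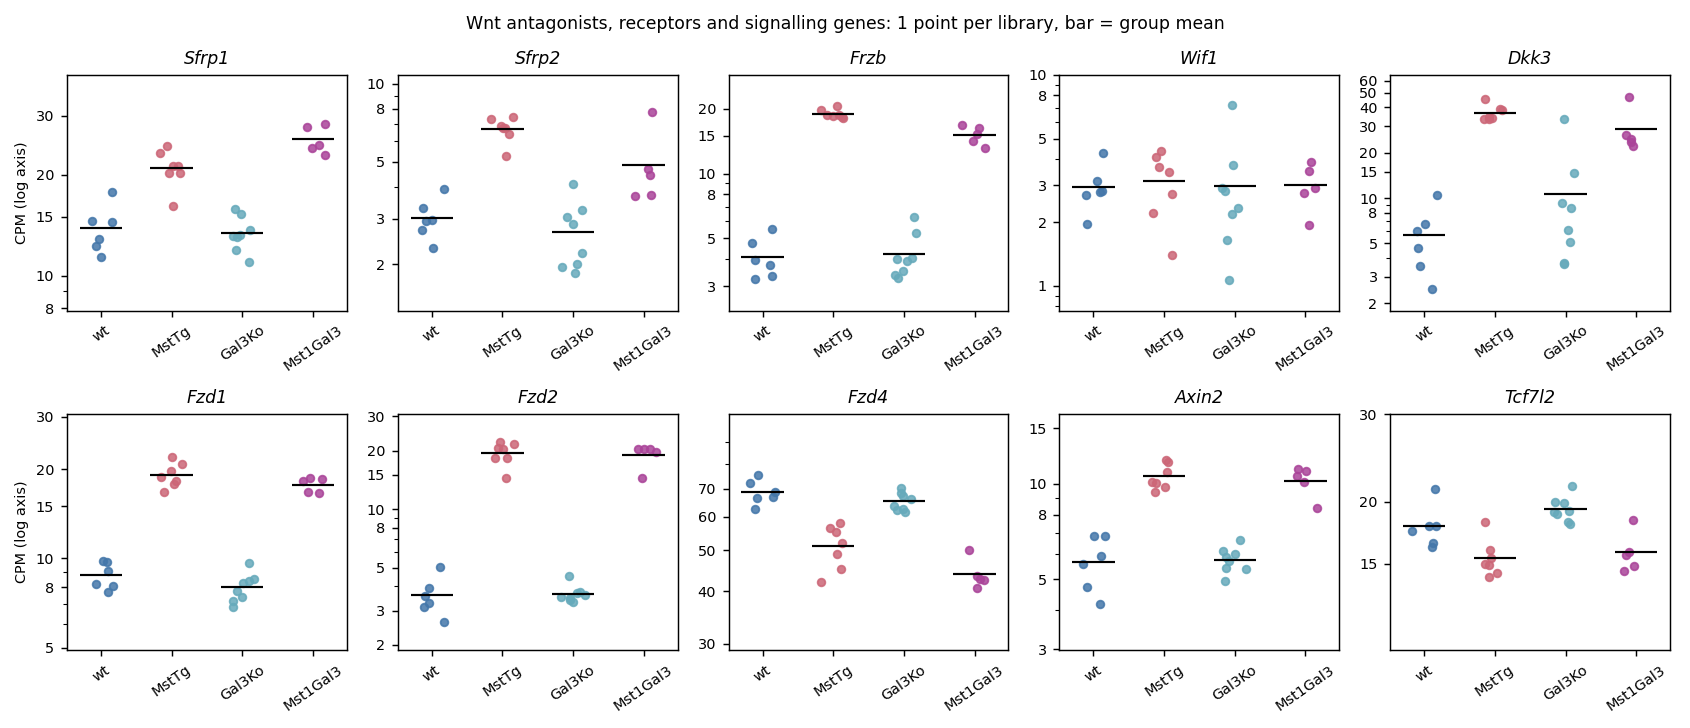
CPM of each of the 10 genes in every library (log axis), by group, with a bar at the group mean. Fzd2 and Frzb separate the Mst-1 groups from the others without overlap, the 4 groups overlap for Wif1, and 1 Gal3Ko library stands above its group for Dkk3 (33.3 CPM).

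Among the secreted Frizzled-related proteins, Frzb (also called sFRP3; chromosome 2, 80411970 to 80447625, GRCm38) changed most. It had 3.23, 3.86 and 5.54 CPM (lowest, median and highest) in wt, 18.1, 18.7 and 20.6 CPM in MstTg, 3.27, 3.98 and 6.31 CPM in Gal3Ko, and 14.2, 15.3, 16.9, 16.3 and 13.2 CPM in the 5 Mst1Gal3 libraries. Every Mst-1 library lay above every library without the transgene. Frzb rose 4.60-fold in MstTg against wt (log2 fold change 2.20 ± 0.12 SE, edgeR adjusted p = 5.55e-16) and 3.59-fold in Mst1Gal3 against Gal3Ko (1.84 ± 0.12, adjusted p = 2.2e-14). All 5 Mst1Gal3 libraries lay below all 7 MstTg libraries, yet the difference did not pass the adjustment (log2 fold change -0.32 ± 0.11, edgeR adjusted p = 0.111). Frzb is known from cartilage, where it was first isolated, and as a Wnt-binding antagonist.

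Sfrp2 (chromosome 3, 83766321 to 83774316) encodes a fibroblast product that binds Wnt ligands and also acts on collagen processing. Its level was 2.31, 2.96 and 3.92 CPM in wt, 5.24, 6.76 and 7.44 CPM in MstTg, and 1.85, 2.55 and 4.08 CPM in Gal3Ko. The Mst1Gal3 libraries had 4.44, 3.67, 7.76, 4.68 and 3.71 CPM. MstTg did not overlap wt, whereas 2 Mst1Gal3 libraries lay below the highest Gal3Ko library. Sfrp2 rose 2.22-fold in MstTg against wt (log2 fold change 1.15 ± 0.17, edgeR adjusted p = 1.13e-06) and 1.82-fold in Mst1Gal3 against Gal3Ko (0.86 ± 0.18, adjusted p = 0.00012). An antisense gene, Gm26771, covers 347 bases (16.1%) of the Sfrp2 exons, and no source used here gives the strand setting of the counting.

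Sfrp1 (chromosome 8, 23411502 to 23449632), another Frizzled-related antagonist, had the highest level per kilobase of these binders in wt, and its rise in MstTg against wt was the smallest of the 7. It ran from 11.4 to 17.7 CPM in wt (median 13.7), from 16.2 to 24.4 CPM in MstTg (median 21.2) and from 11.02 to 15.8 CPM in Gal3Ko (median 13.2). The Mst1Gal3 libraries had 27.7, 24.1, 28.5, 22.9 and 24.6 CPM. MstTg 6, at 16.2 CPM, fell within the wt range, while Mst1Gal3 lay wholly above Gal3Ko. The rise was 1.52-fold in MstTg against wt (log2 fold change 0.60 ± 0.10, edgeR adjusted p = 2.73e-06) and 1.91-fold in Mst1Gal3 against Gal3Ko (0.93 ± 0.09, adjusted p = 6.66e-10). The difference between these responses, 0.33 ± 0.14, did not pass (adjusted p = 0.298).

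Wif1 (chromosome 10, 121033960 to 121100650), which binds Wnt ligands through its own WIF domain and is unrelated to the Frizzled-related proteins, showed no detectable change. Its medians were 2.80, 3.46, 2.58 and 2.91 CPM in wt, MstTg, Gal3Ko and Mst1Gal3, and its full range was 1.07 to 7.18 CPM, both ends being Gal3Ko libraries. The log2 fold change was 0.10 in MstTg against wt (95% interval -0.54 to 0.74, edgeR adjusted p = 0.812) and 0.01 in Mst1Gal3 against Gal3Ko (-0.65 to 0.66, adjusted p = 0.987). Wif1 had 30 to 174 counts per library. Its standard error in MstTg against wt, 0.31, was 0.24 without Gal3Ko 8, the library with the 7.18 CPM.

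Dkk3 (chromosome 7, 112116017 to 112159057) belongs by sequence to the Dickkopf family, but unlike DKK1 it is not established as an LRP5/6 ligand. Its level was 2.50, 5.33 and 10.4 CPM in wt (lowest, median and highest), 33.3, 34.7 and 45.2 CPM in MstTg, and 3.63, 7.33 and 33.3 CPM in Gal3Ko. The Mst1Gal3 libraries had 22.1, 26.4, 47.3, 23.5 and 24.7 CPM. MstTg lay wholly above wt, but Gal3Ko 8, at 33.3 CPM, exceeded 4 of the 5 Mst1Gal3 libraries. Dkk3 rose 6.53-fold in MstTg against wt (log2 fold change 2.71 ± 0.43, edgeR adjusted p = 1.11e-05), the largest change among the 10 genes, and 2.71-fold in Mst1Gal3 against Gal3Ko (1.44 ± 0.39, adjusted p = 0.00373).

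Dkk3 was high in several of the libraries that were high in atrial genes. Gal3Ko 8 had 123 CPM of Myl4, Myl7 and Sln together with its 33.3 CPM of Dkk3, and Mst1Gal3 3 had 127 CPM with 47.3 CPM of Dkk3. Gal3Ko 5 (51.2 CPM of the atrial genes) had 14.8 CPM of Dkk3 and wt 5 (33.1 CPM) had 10.4 CPM, each the highest or next highest of its group. Gal3Ko 4, with 38.9 CPM of the atrial genes, had 6.13 CPM of Dkk3. Without the 6 libraries Dkk3 averaged 4.69 ± 1.74 CPM (SD, n = 5) in wt, 36.5 ± 4.68 (n = 6) in MstTg, 6.05 ± 2.68 (n = 5) in Gal3Ko and 24.2 ± 1.81 (n = 4) in Mst1Gal3. The rise with Mst-1 was then 2.97 (edgeR adjusted p = 5.15e-09) outside the knockout and 1.99 (adjusted p = 2.4e-06) within it on the log2 scale, larger than with all libraries. In Gal3Ko against wt the estimate of 0.92 ± 0.43 (adjusted p = 0.744) became 0.37 (adjusted p = 0.971) when Gal3Ko 8 alone was left out. Gal3Ko 8 and Mst1Gal3 3 also had the highest summed valve and cartilage-like markers of their groups (57.8 CPM against 14.4 to 33.6 in the other Gal3Ko libraries, and 149 CPM against 103 to 121). The part of atrial or valve tissue in the Dkk3 values was not tested.

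**Figure D2:**
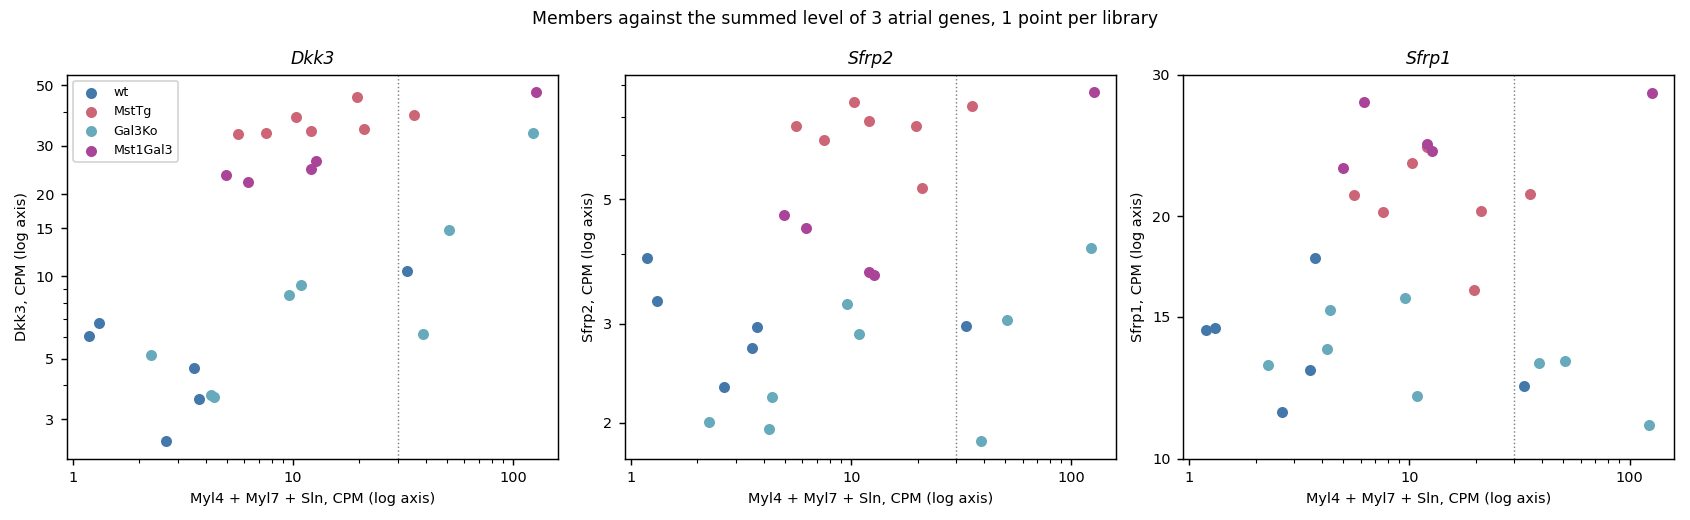
CPM of Dkk3, Sfrp2 and Sfrp1 against the summed CPM of Myl4, Myl7 and Sln, 1 point per library (both axes log; the dotted line marks 30 CPM). Gal3Ko 8 (123 CPM of the atrial genes) and Mst1Gal3 3 (127 CPM) hold the highest Dkk3 and Sfrp2 values of their groups, while for Sfrp1 Gal3Ko 8 holds the lowest (11.02 CPM) and Mst1Gal3 3 the highest value (28.5 CPM) of its group.

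The receptors Fzd1 and Fzd2 rose and Fzd4 fell. Frizzled receptors are transmembrane proteins with a cysteine-rich Wnt-binding domain, the domain that the secreted Frizzled-related proteins resemble. Fzd2 (chromosome 11, 102604396 to 102608058, a single-exon gene) had 2.64, 3.44 and 5.06 CPM in wt, 14.5, 20.5 and 22.1 CPM in MstTg, 3.31, 3.58 and 4.54 CPM in Gal3Ko, and 20.4, 19.8, 20.5, 20.4 and 14.4 CPM in Mst1Gal3. No Mst-1 library fell below 14.4 CPM and no other library exceeded 5.06 CPM. The rise was 5.43-fold in MstTg against wt (log2 fold change 2.44 ± 0.12, edgeR adjusted p = 1.43e-17) and 5.20-fold in Mst1Gal3 against Gal3Ko (2.38 ± 0.11, adjusted p = 9.3e-18). Fzd1 (chromosome 5, 4753839 to 4758035, also a single exon) ran from 7.68 to 9.81 CPM in wt (median 8.65), 16.7 to 21.9 CPM in MstTg (median 18.9) and 6.88 to 9.67 CPM in Gal3Ko (median 8.02). The Mst1Gal3 libraries had 18.7, 16.7, 18.5, 18.2 and 16.7 CPM, again clear of Gal3Ko. Fzd1 rose 2.18-fold (1.12 ± 0.08, edgeR adjusted p = 8.63e-14) and 2.21-fold (1.15 ± 0.08, adjusted p = 6.38e-14) in the same comparisons. Transcripts of Fzd1, Fzd2, Fzd4, the related Fzd7, Sfrp1, Sfrp2 and Frzb shared 0 stretches of 50 bases with each other in GENCODE M21. Reads of that length can thus be told apart among these genes, and other genes were not compared.

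Fzd4 (chromosome 7, 89404355 to 89413134), the Frizzled known as the receptor of norrin in blood vessel growth, had the highest level per kilobase of exon of the 10 genes in wt and Gal3Ko and moved the other way. It had 62.5, 67.6 and 75.2 CPM in wt, 42.1, 52.0 and 57.9 CPM in MstTg, 61.6, 64.8 and 70.2 CPM in Gal3Ko, and 43.4, 42.6, 42.8, 40.6 and 50.1 CPM in Mst1Gal3. All Mst-1 libraries lay below all others. The level in MstTg was 0.746 times that in wt (log2 fold change -0.42 ± 0.06, edgeR adjusted p = 1.5e-06), and in Mst1Gal3 0.673 times that in Gal3Ko (-0.57 ± 0.07, adjusted p = 1.64e-08). With library totals as the scale, these values were -0.18 (adjusted p = 0.0253) and -0.34 (adjusted p = 0.000193).

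Downstream of the receptors, Axin2 rose and Tcf7l2 was slightly lower. Axin2 (chromosome 11, 108920349 to 108950783), the feedback inhibitor often read as a measure of canonical signalling, had 4.18, 5.74 and 6.86 CPM in wt, 9.42, 10.2 and 11.9 CPM in MstTg, 4.95, 5.78 and 6.64 CPM in Gal3Ko, and 10.6, 11.1, 11.02, 10.1 and 8.38 CPM in Mst1Gal3. The Mst-1 groups did not overlap the others. It rose 1.87-fold in MstTg against wt (log2 fold change 0.90 ± 0.10, edgeR adjusted p = 3.45e-09) and 1.78-fold in Mst1Gal3 against Gal3Ko (0.83 ± 0.10, adjusted p = 1.76e-08). An antisense gene, Gm11670, shares 209 bases (3.80%) of its exons.

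Tcf7l2 (chromosome 19, 55741820 to 55933654), a nuclear partner of beta-catenin, had 16.2, 17.7 and 21.3 CPM in wt, 14.1, 15.0 and 18.2 CPM in MstTg, 18.1, 19.1 and 21.5 CPM in Gal3Ko, and 18.3, 14.5, 15.6, 15.9 and 14.9 CPM in Mst1Gal3. In both comparisons the groups overlapped. The log2 fold change was -0.21 ± 0.07 in MstTg against wt (edgeR adjusted p = 0.00851), but 0.03 (adjusted p = 0.712) with library totals as the scale and -0.15 (adjusted p = 0.0911) without the 6 libraries. In Mst1Gal3 against Gal3Ko it was -0.29 ± 0.07 (edgeR adjusted p = 0.000919), and -0.05 (adjusted p = 0.598) with library totals.

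**Figure D3:**
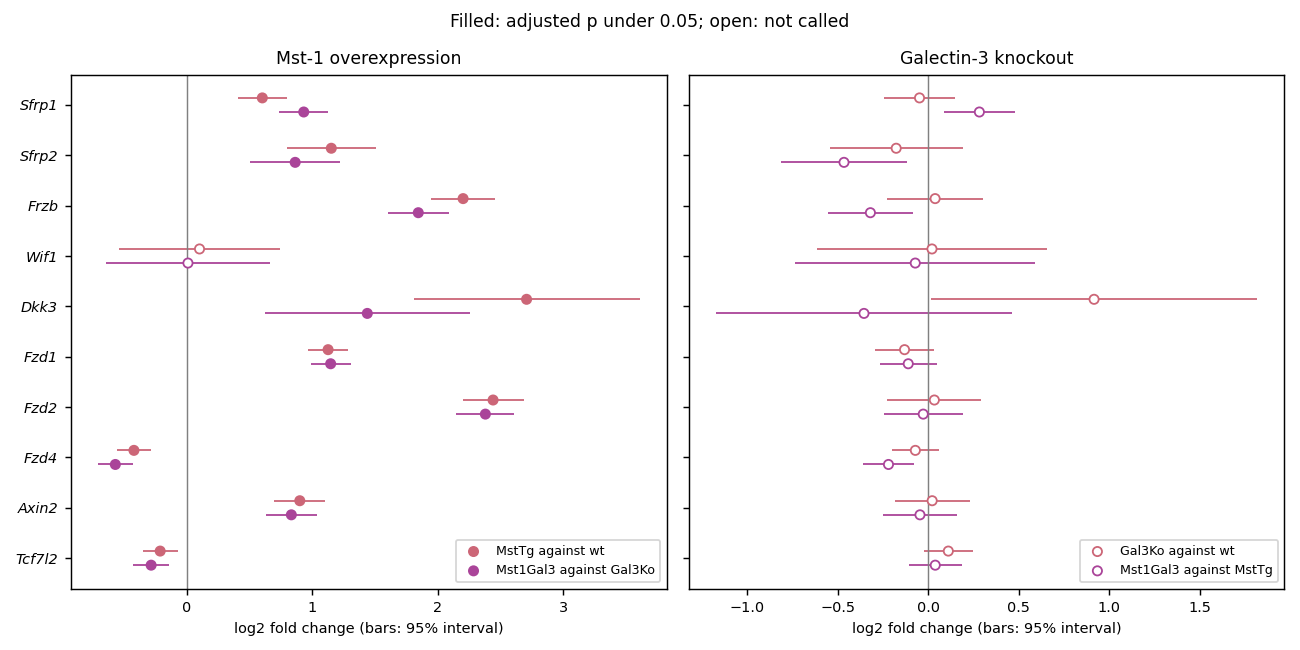
Log2 fold changes with 95% intervals for Mst-1 overexpression (left: MstTg against wt, Mst1Gal3 against Gal3Ko) and galectin-3 knockout (right: Gal3Ko against wt, Mst1Gal3 against MstTg); filled points had an adjusted p under 0.05 by edgeR. In the left panel 7 genes are called higher and Fzd4 and Tcf7l2 lower in each comparison (Tcf7l2 at 0.03 in MstTg against wt with library totals as the scale), and in the right panel none is called.

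Galectin-3 knockout was not accompanied by a called change in any of the 10 genes. In Gal3Ko against wt 0 of 10 were called, with 0.177% of all genes called higher and 0.177% lower. At an unadjusted p under 0.05, a threshold at which the share of all genes was not counted, there was 1 (Dkk3). DESeq2 and limma-voom called 0. The intervals limit what can have been missed: for Fzd1 the log2 fold change lay between -0.29 and 0.03, for Axin2 between -0.18 and 0.23, and for Fzd4 between -0.20 and 0.06, whereas for Dkk3 it ran from 0.01 to 1.82 and for Wif1 from -0.61 to 0.65. Without the 6 libraries high in atrial genes edgeR again called 0 of 10, with 17 of all genes called higher and 16 lower.

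In the Mst-1 background, Mst1Gal3 against MstTg, 0 of 10 were called by edgeR, with 2.54% of all genes called higher and 2.35% lower. The share of all genes at an unadjusted p under 0.05 was not counted, so the number of members there does not show an excess. At that unadjusted edgeR threshold there were 4 members: Sfrp1 (log2 fold change 0.28 ± 0.10, adjusted p = 0.0881), Sfrp2 (-0.46 ± 0.17, adjusted p = 0.121), Frzb (-0.32 ± 0.11, adjusted p = 0.111) and Fzd4 (-0.22 ± 0.07, adjusted p = 0.0613). These 4 sat near the threshold, and the call depended on the method: DESeq2 called 1 (Fzd4, adjusted p = 0.0422) and limma-voom 2 (Sfrp2, adjusted p = 0.0364, and Frzb, adjusted p = 0.0234). Without the 6 libraries high in atrial genes edgeR called Sfrp2 (-0.68, adjusted p = 0.00489) and Frzb (-0.34, adjusted p = 0.0306) lower in Mst1Gal3. Leaving out Mst1Gal3 3 alone gave -0.70 for Sfrp2 (adjusted p = 0.00796). Fzd1, Fzd2 and Axin2 were within -0.27 to 0.19 on the log2 scale by their 95% intervals in this comparison.

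The interaction, which is the Mst-1 response with the knockout minus that without it, was called for 0 of 10 genes by edgeR, DESeq2 and limma-voom alike, with 0.289% of all genes called higher and 0.367% lower. At an unadjusted edgeR p under 0.05 there were 3 members: Sfrp1 (0.33, adjusted p = 0.298), Frzb (-0.36, adjusted p = 0.404) and Dkk3 (-1.27, adjusted p = 0.384). The share of all genes at this unadjusted threshold was not counted, so the number does not show an excess. Without Gal3Ko 8 the Dkk3 value was -0.72 (edgeR adjusted p = 0.587). For the receptors the interval of the interaction was -0.21 to 0.25 for Fzd1 and -0.40 to 0.28 for Fzd2. Without the 6 libraries high in atrial genes edgeR again called 0 of 10. Of all genes 68 were then called higher, against 44 with all libraries, and the count of lower genes stayed within 1.5 times of 56.

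Levels were compared between genes only per length, as CPM per kilobase of the union of exons. In wt, Fzd4 stood first at 10.2 ± 0.665 CPM per kb (SD, n = 6), above every library value of the other 9 genes. Sfrp1 followed at 3.18 ± 0.514, then Fzd1 at 2.09 ± 0.214 and Tcf7l2 at 2.04 ± 0.204, which overlapped. Dkk3 (1.68 ± 0.837), Sfrp2 (1.41 ± 0.253), Frzb (1.27 ± 0.275), Wif1 (1.22 ± 0.314), Axin2 (1.03 ± 0.199) and Fzd2 (0.985 ± 0.227) came next, each overlapping its neighbours. In MstTg the order was different. Dkk3 was highest at 10.97 ± 1.30 CPM per kb (n = 7) and did not overlap Fzd4 at 7.61 ± 0.897. Frzb (5.85 ± 0.284), Fzd2 (5.30 ± 0.716), Sfrp1 (4.80 ± 0.600) and Fzd1 (4.56 ± 0.428) formed a middle range in which each overlapped its neighbours. Frzb (5.58 to 6.36) lay wholly above Fzd1 (3.98 to 5.23) and overlapped the low end of Fzd4 (6.26). Sfrp2 (3.11 ± 0.340) lay below this middle range, and Axin2 (1.92 ± 0.177), Tcf7l2 (1.76 ± 0.156) and Wif1 (1.29 ± 0.437) were lowest. The place of Tcf7l2 depends on the length used: its 22 annotated transcripts have a union of 8775 bases but a longest transcript of 3715, and with the latter it was second in wt at 4.82 CPM per kb.

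**Figure D4:**
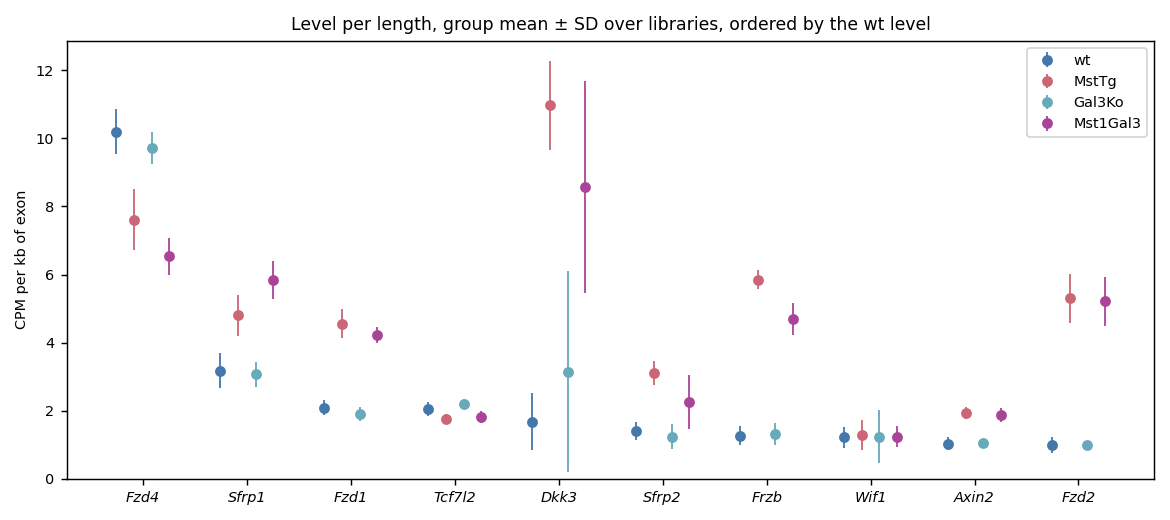
CPM per kb of exon of the 10 genes, group mean and SD over libraries, ordered by the wt level. Fzd4 leads in wt (10.2) and Gal3Ko (9.71) and Dkk3 in MstTg (10.97) and Mst1Gal3 (8.57), with wide Dkk3 bars in Gal3Ko and Mst1Gal3.

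The members varied little together inside the groups. After group means were subtracted from log2 CPM, Pearson r over the 26 libraries had a median of 0.11 across the 45 pairs and a range of -0.33 to 0.75. These libraries share depth and composition, so r is given as a description. Above 0.5 were 5 pairs, Sfrp2 with Dkk3 (0.75), Frzb with Dkk3 (0.57), Fzd2 with Axin2 (0.56), Sfrp2 with Wif1 (0.55) and Sfrp2 with Frzb (0.51). For Sfrp2, Frzb and Dkk3, the libraries Gal3Ko 8 and Mst1Gal3 3 both had the highest value of their groups.

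Across the whole table, the genes most like each member over the 26 libraries (Pearson r of log2 CPM) mostly reflect the Mst-1 groups. Fzd2 was closest to Myh10 (0.99), Ltbp3 and Tns3, Fzd1 to S1pr2 (0.99), Hbegf and Shc4, Frzb to Nppa (0.99), Mgp and Enpp1, and Axin2 to Abcc1 (0.95), Myh10 and Fzd2. Sfrp1 was closest to Enpp6 (0.93), Pcdh18 and the fibroblast marker Pdgfra, Sfrp2 to Fbln5 (0.94), Apcdd1 and Comp, and Fzd4 to Foxo3 (0.94), H2-Aa and Proser2. With group means subtracted, Dkk3 remained closest to Comp (0.87), the cartilage oligomeric matrix protein, and Sdk2 (0.85), Sfrp2 to Comp (0.80), and Sfrp1 to C3 (0.77). Tcf7l2 was then closest to Ppnr (0.74), a gene annotated inside a Tcf7l2 intron on the same strand, so their reads may not be separable. Wif1 was closest to Ksr1 by both measures (0.73 over all libraries and 0.75 with group means subtracted).

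Cell type markers moved in the same direction as several of the 10 genes. The marker counts stand beside 28.2% of all genes called higher and 26.8% lower in MstTg against wt. Of 15 fibroblast markers 14 rose in MstTg against wt and 0 fell, and their summed level was 1781 to 2514 CPM in wt, 4481 to 5747 CPM in MstTg, 1800 to 2218 CPM in Gal3Ko and 4537 to 5199 CPM in Mst1Gal3. The most abundant, Gsn and Dcn, rose by 0.91 and 1.36 on the log2 scale. Activated fibroblast markers rose in 7 of the 9 measured (0 fell), from 146 to 290 CPM in wt and 157 to 246 CPM in Gal3Ko to 1668 to 2303 CPM in MstTg and 968 to 1407 CPM in Mst1Gal3. Cilp (log2 fold change 4.81) and Postn (3.32), named for their abundance and not for the size of their change, were among them. Endothelial markers, the lineage in which Fzd4 is best known, fell in 11 of 14 and rose in 0, from 1423 to 1665 CPM in wt and 1307 to 1613 CPM in Gal3Ko to 1035 to 1224 CPM in MstTg and 1051 to 1156 CPM in Mst1Gal3. Kdr and Fabp4, the most abundant, fell by 0.78 and 0.62 on the log2 scale. With library totals as the scale 6 of the 14 fell and 0 rose.

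Valve and cartilage-like markers rose in 5 of 6 measured (median log2 fold change 2.80), with 12.0 to 26.5 CPM in wt, 145 to 244 CPM in MstTg, 14.4 to 57.8 CPM in Gal3Ko and 103 to 149 CPM in Mst1Gal3. Fmod and Comp were the most abundant, Sox9 rose by 1.28 on the log2 scale, and the other 3 of the 9 listed genes were not measured here. Of 10 cardiomyocyte markers 2 rose and 8 fell, and of 6 measured atrial markers 1 rose (Nppa, which stressed ventricle also makes) and 2 fell (median log2 fold change 0.46). Without the 6 libraries, which were picked on 3 of these atrial markers, 4 rose and 2 fell (median 2.30). In the other lists the counts of higher and lower markers were 3 and 0 of 5 for endocardium, 3 and 5 of 12 for smooth muscle and pericytes (5 and 3 with library totals), 3 and 1 of 15 for macrophages, 0 and 3 of 5 for mesothelium, 0 and 1 of 4 for Schwann cells, 0 and 1 of 2 for adipocytes, and none of 2 lymphocyte, 1 neutrophil and 6 red blood cell genes. The smooth muscle and pericyte markers summed to 2670 to 3040 CPM in wt, 3774 to 5178 CPM in MstTg, 2616 to 3038 CPM in Gal3Ko and 4412 to 5793 CPM in Mst1Gal3. The sum was higher with Mst-1 without overlap, but it is weighted to the most abundant genes of the list. The median log2 fold change of the 12 was -0.11 in MstTg against wt and 0.26 in Mst1Gal3 against Gal3Ko, so the sum does not show a shift of the list as a whole. Some lists share a gene, so their counts are not independent. Fabp4 is in the endothelial and adipocyte lists, Vwf in the endothelial and endocardial lists, and Comp in the activated fibroblast and valve lists. Acta2 is in the activated fibroblast and the smooth muscle and pericyte lists. The part of cell composition in the changes of the 10 genes was not tested.

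Other genes of the pathway were read from 9 lists by role, and they did not move as a block. In MstTg against wt 28.2% of all genes were called higher and 26.8% lower, so calls are common in any list. With library totals 7789 of all 15249 genes were called higher and 2166 lower. Of 19 listed Wnt ligands 7 were in the table, and in MstTg against wt 4 rose and 1 fell. Wnt9a rose by 0.81 and Wnt5b by 0.64 on the log2 scale (edgeR adjusted p = 2.07e-09 and 9.55e-05). Wnt16 went from 0 to 4 counts per library in wt to 16 to 70 in MstTg, so that its fold is poorly determined. Among 7 measured of 16 other secreted or extracellular inhibitors, 2 rose (the DKK receptor Kremen1 by 0.66 and Apcdd1 by 1.001) and 2 fell, including the Wnt-cleaving protease gene Trabd2b (-0.82). Of 14 measured other receptors and co-receptors 4 rose and 2 fell, and with library totals 7 rose and 0 fell. Fzd7, a close relative of Fzd1 and Fzd2, went from 10.3 ± 1.15 CPM in wt to 47.8 ± 3.82 CPM in MstTg (log2 fold change 2.21 ± 0.08, edgeR adjusted p = 2.23e-20), Ptk7 rose by 1.01 and Smo, the Hedgehog signal transducer that is a Frizzled relative, by 0.48.

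Of the R-spondin group 3 of 9 genes were measured: the receptor Lgr6 fell by 1.29, Lgr4 rose by 0.31, and the ligase gene Znrf3 had a log2 fold change of -0.09 (edgeR adjusted p = 0.268). In the secretion machinery 2 of 7 rose and 2 fell, with the Wnt carrier Wls at 0.82 and the retromer and cargo genes Vps26a and Tmed5 at -0.39 and -0.47. With library totals the secretion list read 3 higher and 1 lower, and Vps26a was no longer called (-0.14, edgeR adjusted p = 0.0672). Among 19 genes of beta-catenin and its destruction complex 7 rose and 6 fell, not far from the shares over all genes (28.2% higher and 26.8% lower). The changes were small, such as 0.40 for Apc, 0.49 for Amer1 and -0.36 for Tnks2. Tnks2 was no longer called with library totals (-0.11, edgeR adjusted p = 0.0533). Of 17 measured nuclear partners 4 rose, including Ctnnbip1 (0.46), and 3 fell, including Aes (-0.68) and Pygo1 (-0.52). With library totals the destruction complex and nuclear partner lists read 12 higher and 1 lower, and 9 higher and 2 lower. In planar polarity and other non-canonical components 4 of 17 rose and 7 fell, among the latter Celsr2 (-1.41), Celsr1 (-1.25) and Daam1 (-0.58), and with library totals 9 rose and 5 fell.

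Textbook target and feedback genes, a list without Axin2, moved most by their median. This list was also chosen with earlier results of these data known, so its median is a description. Of 14 measured 10 rose and 2 fell in MstTg against wt, with a median log2 fold change of 0.93 (12 higher and 1 lower with library totals). In Mst1Gal3 against Gal3Ko 10 rose and 1 fell (median 0.75), beside 26.9% of all genes called higher and 25.6% lower. The genes with the smallest p in MstTg against wt, all of them risers, were Cd44 (2.46 ± 0.08), a cell surface receptor for hyaluronan, Nkd2 (3.28 ± 0.12), a feedback inhibitor that acts on Dishevelled, and Wisp1 (3.48 ± 0.17), a matricellular protein of the CCN family. Many genes of the list are also targets of other pathways.

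**Figure D5:**
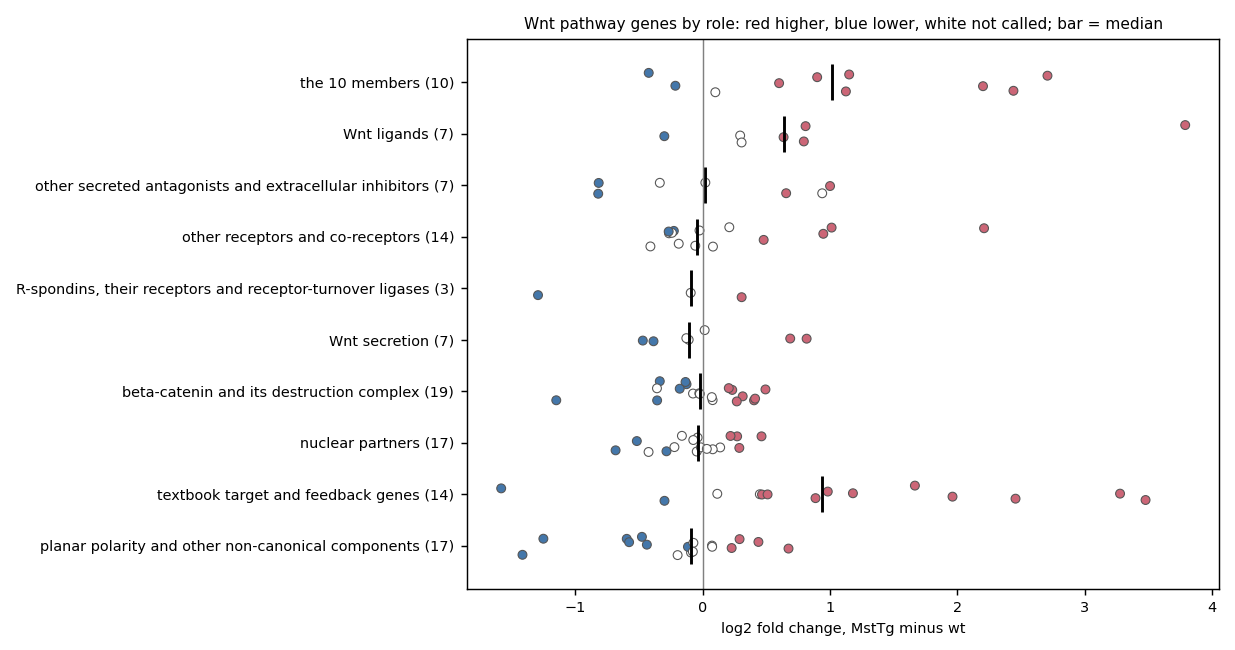
Log2 fold change in MstTg against wt for the 10 genes and for the measured genes of 9 pathway lists (number in brackets), each point a gene, red called higher, blue called lower, white not called, bar at the median. The 10 genes (median 1.01) and the target list (0.93) sit to the right, while the destruction complex (-0.02) and nuclear partners (-0.04) centre near 0. Genes and lists were chosen with earlier results of these data known. With library totals as the scale the median of all genes shifts by 0.25 and Tcf7l2 stands at 0.03.

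Differences between Mst1Gal3 and MstTg were called for 5 of the listed genes. Over all genes 2.54% were called higher and 2.35% lower in this comparison. The calls were in 2 of 14 target genes and in 1 of 7 genes in each of the ligand, inhibitor and secretion lists. Nkd2 (log2 fold change -0.71 ± 0.10, edgeR adjusted p = 4.43e-05), Wisp1 (-0.90 ± 0.14, adjusted p = 0.00012), Wnt11 (-0.78 ± 0.16, adjusted p = 0.00317) and Wls (-0.35 ± 0.09, adjusted p = 0.0127) were lower in Mst1Gal3. Igfbp4 was higher (0.33 ± 0.10, edgeR adjusted p = 0.0468), a call lost in most alternatives. No listed gene was called in Gal3Ko against wt, where 0.177% of all genes were called higher and 0.177% lower. Wnt11, a non-canonical ligand, averaged 3.28 ± 0.887 CPM in wt, 4.03 ± 0.535 in MstTg, 3.75 ± 0.521 in Gal3Ko and 2.35 ± 0.573 in Mst1Gal3.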

How the data were processed

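RNA from 26 left ventricle libraries was measured, grouped by sample title. Per the labels' protocols, total RNA was depleted of ribosomal RNA and made into directional libraries. Per the submitters' processing notes the build was GRCm38, with featureCounts, STAR and bcl2fastq 2.19.1.403. No source used here gives other versions, the annotation or the strand setting. The authors deposited raw counts per gene, with no normalization, and the lowest mean count of any of the 15249 genes was 10.0, so scarcer genes could not be tested.

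The members and all gene lists (9 by Wnt pathway role, 15 of cell type markers) were chosen with earlier results of these data known. Counts were tested with edgeR 4.0.16 in R 4.3.3 (TMM factors, filterByExpr, which removed 0 genes, robust glmQLFit and glmQLFTest, two-sided, Benjamini-Hochberg adjustment over all genes, threshold 0.05). All 26 libraries entered 1 fit with a mean per group and 22 residual degrees of freedom. Standard errors are the estimate divided by the root of F, and intervals are 95%. CPM use TMM-adjusted library sizes, and log2 CPM a prior count of 0.5. Replicate pairs were checked for duplicates (lowest chi-square per degree of freedom 4.90). The fit was checked on simulated data. Positions and exon lengths are from GENCODE M21 (GRCm38) and promoters from RefSeq GRCm38.p6.

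Named genes were the 10 members, Stk4 and Lgals3, the 3 smallest p of each pathway list in MstTg against wt plus any list gene called in another galectin-3 comparison or the interaction, the 2 most abundant markers of lists described, and the 3 genes most like each member. Myl4, Myl7 and Sln, Sox9, genes shared between marker lists and genes overlapping a member were named after their values were seen. Alternatives were DESeq2 1.42.0, limma-voom 3.58.1, other scalings and filters, a replicate block, leaving out each library and, added after seeing the data, leaving out the 6 libraries with over 30 CPM of atrial genes.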

Additional observations from a re-analysis of the deposited data

Results flagged for a closer look

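Within groups, 7 of 40 sets of library values had an end value far from the rest by Dixon's test. For independent sets of normal values chance alone does so in about 1 set in 20. These sets share libraries and normality was not checked, so 7 of 40 does not show an excess. Gal3Ko 8 had 33.3 CPM of Dkk3, where the other Gal3Ko libraries had 3.63 to 14.8, and 7.18 CPM of Wif1, where the others had 1.07 to 3.75. Mst1Gal3 3 had 47.3 CPM of Dkk3 against 22.1 to 26.4 in the others, and 7.76 CPM of Sfrp2 against 3.67 to 4.68. These are the 2 libraries with the most Myl4, Myl7 and Sln (123 and 127 CPM in sum). They also had the highest summed valve and cartilage-like markers of their groups (57.8 and 149 CPM), and Comp stood at 15.5 CPM in Gal3Ko 8. What sets them apart was not tested.

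Fzd2 was low in Mst1Gal3 5 (14.4 CPM against 19.8 to 20.5) and high in Gal3Ko 3 (4.54 CPM against 3.31 to 3.74). Tcf7l2 was high in wt 5 (21.3 CPM against 16.2 to 17.9), and this library is also among those with over 30 CPM of the atrial genes.

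The Mst-1 response of 2 pathway genes differed with the galectin-3 genotype by the interaction test. Over all genes 0.289% were called higher and 0.367% lower in this test. Wisp1 rose from 0.902 ± 0.216 CPM (SD, n = 6) in wt to 10.1 ± 1.15 (n = 7) in MstTg, but from 1.54 ± 0.391 (n = 8) in Gal3Ko to 5.39 ± 1.48 (n = 5) in Mst1Gal3, an interaction of -1.69 (log2, edgeR adjusted p = 0.000261). Wnt11 was lower in Mst1Gal3 than in Gal3Ko (log2 fold change -0.67, edgeR adjusted p = 0.000693), while in MstTg against wt it did not pass (0.31, adjusted p = 0.0868), although it was called higher with library totals (0.55, adjusted p = 0.00321), by limma-voom (0.35, adjusted p = 0.0481), and by edgeR without wt 4 (0.43, adjusted p = 0.0164) or MstTg 7 (0.37, adjusted p = 0.0398). Its interaction was -0.98 (edgeR adjusted p = 0.0282), a call that ended without wt 1, Gal3Ko 7 or Mst1Gal3 1, 2 or 5, and without the 6 libraries high in atrial genes (-1.06, adjusted p = 0.0557).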

How the results depend on the processing

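Over 36 alternatives, 51 called gene results gave 1834 values, of which 1802 kept the call and the direction, 31 lost the call and 1 changed sign and lost it. The 35 results not called gave 1250 values, of which 16 gained a call and 65, none of them called, changed sign. With library totals as the scale, 1 of the 10 genes was called lower in each of MstTg against wt, Mst1Gal3 against Gal3Ko and Mst1Gal3 against MstTg (Fzd4), and Tcf7l2 in MstTg against wt changed sign to 0.0331 (edgeR adjusted p = 0.712). In Mst1Gal3 against MstTg, DESeq2 called 1 lower, limma-voom 2, the fit of only the compared groups 1 (Frzb, edgeR adjusted p = 0.00739), and the fit without the 6 atrial-high libraries 2; the last also called 1 lower in MstTg against wt. Leaving out each library gave 0 to 1 called lower in Mst1Gal3 against MstTg: Fzd4 without MstTg 3, MstTg 7 or Mst1Gal3 5, and Sfrp2 without Mst1Gal3 3.

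Over all genes, Gal3Ko against wt gave 45 higher and 44 lower by DESeq2, 16 and 45 with library totals, 15 higher in the fit of only those groups, and 17 and 16 without the 6 libraries, against 27 and 27. The interaction gave 94 and 101 by DESeq2 and 68 higher without the 6 libraries, against 44 and 56. In Mst1Gal3 against MstTg, library totals gave 136 higher and 558 lower and the fit without the 6 libraries 647 higher, against 387 and 359. Leaving out each library in turn gave 19 to 102 higher and 31 to 87 lower for the interaction, with the most without MstTg 5 and the fewest without Mst1Gal3 4 (19 and 33) or Mst1Gal3 5 (21 and 31). Leaving out wt 2, MstTg 1, 2 or 6, Gal3Ko 1, 5, 7 or 8 or Mst1Gal3 1 also lowered the count of higher genes by over 1.5 times, to 23 to 29. In Mst1Gal3 against MstTg there were 631 higher without MstTg 5, 225 without Mst1Gal3 1 and 237 without Mst1Gal3 4, and in Gal3Ko against wt 45 lower without wt 5.

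Replicate numbers did not pair the libraries: deviations from group means correlated at -0.28 to 0.23 between same-numbered libraries (34 pairs, median 0.01) and at -0.29 to 0.32 between others. With the replicate block the counts of called members were as before (7 higher and 2 lower in MstTg against wt), and the interaction gave 16 higher and 35 lower genes.

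Wif1 and Sfrp2 had similar counts (30 to 174 and 30 to 238 per library) but standard errors of 0.31 and 0.17 in MstTg against wt, so depth alone did not set the precision. Depth limits genes such as Wnt16, with 0 to 4 counts per wt library.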
